A study of Mus musculus with 30 samples.

Results

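Integrins are cell surface receptors made of 1 alpha and 1 beta chain, and 17 alpha chain genes, 8 beta chain genes and 7 genes of adhesion partners were followed across sorted and cultured mouse blood cells. The 32 members were taken by symbol from a table of 23060 gene symbols, and each of them had its row. RNA was measured by poly-A RNA sequencing in 30 libraries, and the values are FPKM, fragments scaled for transcript length and for the number of mapped fragments, so that levels of different genes are on a per-length scale. The control groups came from wild type mice. They were marrow LKS-SLAM cells, a gate for haematopoietic stem cells (3 libraries), and blood cells sorted as Gr1+Cd11b+ myeloid cells (2), B220+ B cells (3), Cd3+Cd4+ T cells (2) and Cd3+Cd8+ T cells (3). The groups titled rEC hold the matching cells annotated as derived, in the same numbers of libraries. In the study's setting these are cells that descend from converted adult endothelium. Within rEC, replicate 2 of the LKS-SLAM cells and of the B cells is titled as clone 47G1 in primary recipients, and replicate 3 of both, replicate 2 of the CD4 cells and replicates 2 and 3 of the CD8 cells are titled as secondary. The last group, FGRS KLS (3 libraries), is adherent derived cells sorted as KLS at day 28 of co-culture with HUVEC, human umbilical vein endothelial cells. FGRS stands for the factors Fosb, Gfi1, Runx1 and Spi1, and the KLS gate lacks the SLAM markers that the marrow gate has. A further library, of B220+ cells of clone 47G1 annotated as wild type, could not be given a group. Whether libraries of a group came from separate animals is not stated, so the p-values measure the spread between libraries, which may be technical.

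An alpha chain and a beta chain join before they reach the cell surface, and the pair sets the ligand. Itgb2 pairs with Itgal (the pair LFA-1, which binds Icam1), Itgam (Mac-1, CD11b), Itgax (CD11c) and Itgad (CD11d), and these pairs serve leukocyte adhesion, extravasation and phagocytosis. Itga4 with Itgb1 binds Vcam1 on stroma and endothelium and helps hold stem cells in the marrow, while Itga4 and Itgae also pair with Itgb7, the latter to bind E-cadherin on epithelium. Itga5 with Itgb1 binds fibronectin, Itga6 with Itgb1 binds laminin, and Itgb3 and Itgb5 pair with Itgav to bind vitronectin. Talin (Tln1) and kindlin-3 (Fermt3) bind the tails of beta chains inside the cell and switch the receptor to its active form. P-selectin (Selp) and its ligand PSGL-1 (Selplg) start the rolling of leukocytes, and Cd44 binds hyaluronan.

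The genes of the 4 alpha chains that pair with Itgb2 all lie on chromosome 7 of mm10, on the plus strand. Itgal (ENSMUSG00000030830.18) spans chr7:127296260-127335138, Itgam (ENSMUSG00000030786.18) chr7:128062640-128118491, Itgax (ENSMUSG00000030789.9) chr7:128129547-128150657 and Itgad (ENSMUSG00000070369.13) chr7:128154376-128223816 in GENCODE M21. Since Itgam and Itgax are neighbours and both were higher in FGRS KLS cells, the 250 bases before their annotated starts (RefSeq, GRCm38.p6, plus strand, chr7:128062390-128062639 and chr7:128129300-128129549) are shown, with capitals on each match to GAGGAA on either strand. That is the core of the sites bound by PU.1, the protein of Spi1.
Itgam: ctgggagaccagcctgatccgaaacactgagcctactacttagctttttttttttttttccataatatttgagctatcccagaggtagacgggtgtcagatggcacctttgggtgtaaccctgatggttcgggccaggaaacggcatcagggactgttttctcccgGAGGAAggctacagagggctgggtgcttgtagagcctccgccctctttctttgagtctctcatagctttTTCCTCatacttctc
Itgax: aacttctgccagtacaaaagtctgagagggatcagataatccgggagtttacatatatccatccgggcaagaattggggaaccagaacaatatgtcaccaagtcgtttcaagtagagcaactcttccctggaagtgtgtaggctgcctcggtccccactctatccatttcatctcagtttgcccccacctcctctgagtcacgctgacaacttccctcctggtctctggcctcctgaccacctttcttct
The Itgam window holds 1 match on each strand and the Itgax window holds 0. Windows were found for 22 of the 32 members, and 9 of their 24 windows (37.5%) hold a match, against 23.3% of all 32851 windows of the same length. A match describes the letters only and is no binding site.

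The libraries were not stranded, so reads from genes that overlap cannot be told apart. In GENCODE M21, 68.7% of the exonic bases of Itgam are also in the gene model Gm49368, 33.5% of those of Itga10 are in Gm42957, and 19.7% of those of Itgad are in 4 other models, Cox6a2 among them. Itgad and Itgax share 378 stretches of 51 bases, the read length, which is 8.30% of those of Itgad and 7.89% of those of Itgax. The share of reads that the authors' processing gave to each is not known, so low values of Itgad are uncertain. No other pair of members shares such a stretch.

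Between 10165 and 12550 genes reached 1 FPKM per library, and relative depth ranged from 0.595 to 1.14 of control B cell replicate 2. The sorted cells carried the markers of their labels: the 7 T cell markers summed to 1841 to 1959.6 FPKM in control CD4 and 2408 to 2532 in control CD8 libraries, the 6 B cell markers to 5866 to 6594 in control B cells, and the 6 myeloid markers to 41361 to 45274 in control myeloid cells. Some libraries stood apart. In rEC B cell replicate 1 the 7 T cell markers summed to 1626 FPKM, against 15.7 to 21.5 in control B cells, while its 6 B cell markers summed to 1725, against 5866 to 6594. In rEC LKS-SLAM replicate 2 the 7 stem cell markers summed to 109 FPKM, against 414 to 481 in controls, and its erythroid and macrophage lists summed to 2298 and 273. Control LKS-SLAM replicates 1 and 2 carried 2908 and 4638 FPKM of eosinophil and basophil markers, and replicate 3 carried 42.5. Control LKS-SLAM replicate 3 and rEC LKS-SLAM replicate 1 carry another cell type label (long-term stem cell) than the other LKS-SLAM libraries.

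Which chains a cell uses was first read from the levels (the map of members by library). In control LKS-SLAM cells the leading alpha chains were Itga6 at 34.9 ± 3.68 FPKM (SD, n = 3), Itga4 at 33.6 ± 2.72 and Itga5 at 23.9 ± 5.82, and the leading beta chain was Itgb1 at 65.7 ± 7.14. Itga6 and Itga4 did not differ beyond their spread. Of the 17 alpha chains, 10 reached a mean of 1 FPKM there. Control myeloid cells were led by Itgal at 484 ± 5.69 FPKM (SD, n = 2) and Itgam at 408 ± 5.64, with Itgb2 at 727 ± 30.8. In control B cells Itga4 stood at 73.5 ± 17.8 (n = 3) and Itgal at 49.96 ± 6.13, and the beta chain in front was Itgb7 at 164 ± 24.5. Itgb7 also led in control CD4 cells at 491 ± 62.1 (n = 2) and in control CD8 cells at 290.3 ± 18.01 (n = 3), with Itgal in front among the alpha chains at 161 ± 19.1 and 158 ± 15.7. Itgal and Itga4 at 145 ± 8.04 FPKM lay within their spread of each other in CD4 cells.

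**Figure D1:**
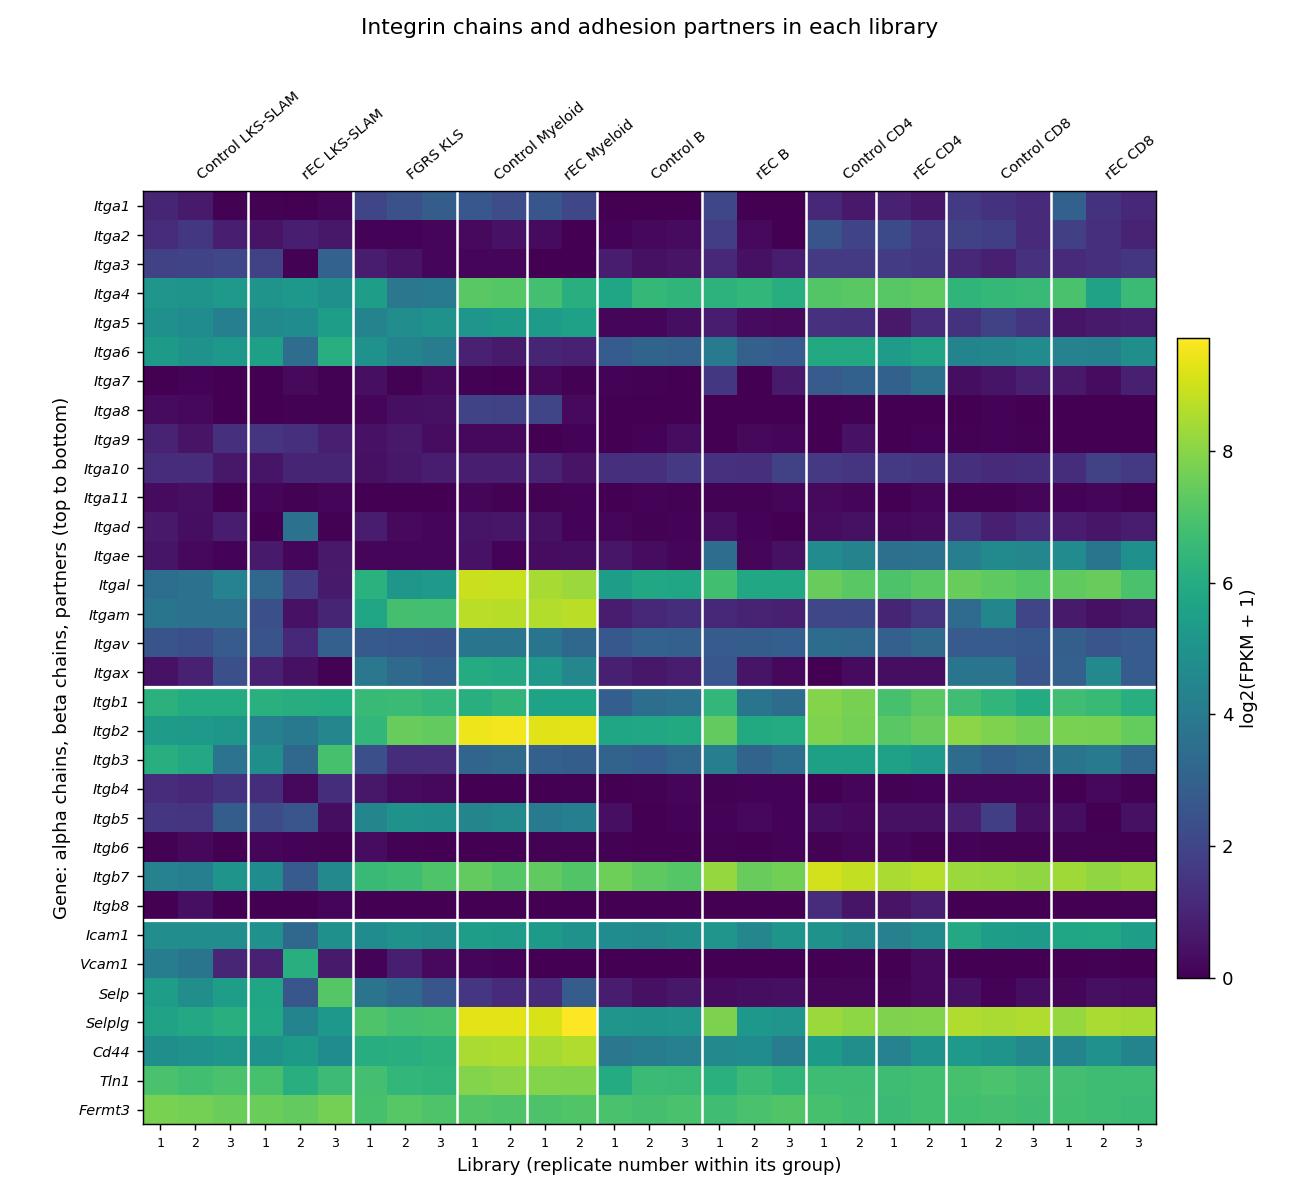
Level of the 32 members (rows, from alpha chains to beta chains to partners) in the 29 grouped libraries (columns, by group and replicate), as log2(FPKM + 1). Itgb2, Selplg and Cd44 are brightest in the myeloid columns, Selp and Itgb4 are visible in the LKS-SLAM columns, and Itgae in the T cell columns and in rEC B replicate 1.

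The partners inside the cell varied least: Fermt3 ranged from 96.3 to 215 FPKM and Tln1 from 62.7 to 257 over the 29 grouped libraries. Itga4, Itgav, Itgb1, Itgb2, Itgb3, Itgb7, Icam1, Selplg, Cd44, Tln1 and Fermt3 reached 1 FPKM in all 29. At the other end Itga11, Itgb6 and Itgb8, chains known from fibroblasts, epithelium and other tissues, were not tested, because none reached 1 FPKM in 2 libraries. Their highest values were 0.3196 FPKM for Itga11 and 0.243 for Itgb6, and Itgb8 stood at 1.35 and 0.457 in the control CD4 libraries. The other 29 members (16 alpha, 6 beta, 7 partners) were tested by limma among 14083 genes on log2(FPKM + 1) with Benjamini-Hochberg adjustment over all of them. A gene is called at an adjusted p under 0.05.

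The make-up of the Itgb2 family differed between the lineages. Of the summed FPKM of its 4 alpha chains, Itgal held 96.4% ± 0.449 (SD, n = 3) in control B cells, 97.7% ± 0.459 (n = 2) in CD4 cells and 88.05% ± 5.91 (n = 3) in CD8 cells. In control myeloid cells Itgal held 50.8% ± 0.167 (n = 2), Itgam 42.9% ± 0.0525 and Itgax 6.25% ± 0.222. The protein of Itgam, Cd11b, was a sort marker of these cells, so its share there follows in part from the sort. Control LKS-SLAM cells had Itgal at 43.4%, 47.03% and 54.03% and Itgam at 52.5%, 48.2% and 31.97% in replicates 1 to 3, so that the parts were close in replicates 1 and 2 and Itgal led in replicate 3. FGRS KLS libraries had 52.2%, 21.5% and 23.6% Itgal and 37.4%, 72.5% and 71.7% Itgam, so that Itgam led in 2 of the 3. In rEC LKS-SLAM cells the make-up differed from library to library. Itgad held 0%, 78.6% and 2.001%, as replicate 2 carried Itgad, the CD11d chain known from macrophages, at 11.2 FPKM while no other grouped library exceeded 1.63. The macrophage marker list was highest among the LKS-SLAM libraries in that same library, as given above, and its part in the Itgad value was not tested. The sum of the 4 chains was 952 FPKM in control myeloid cells and 27.7 in control LKS-SLAM cells. These shares were not tested.

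**Figure D2:**
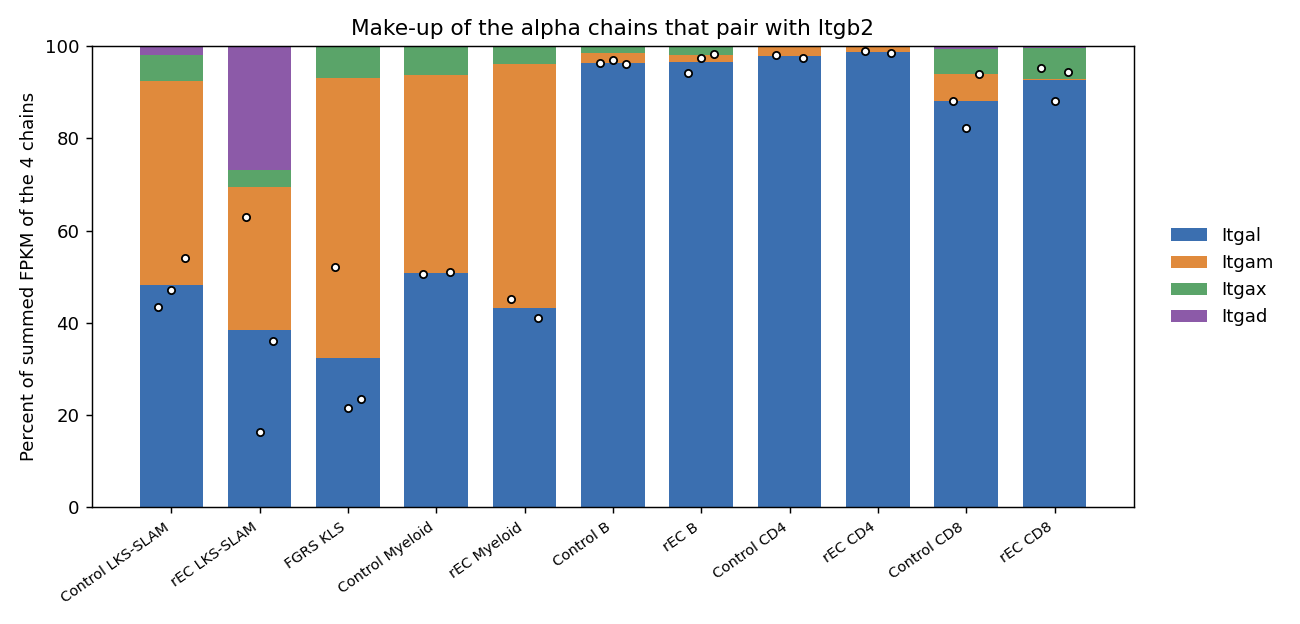
Mean share of Itgal, Itgam, Itgax and Itgad (stacked bars, percent of the summed FPKM of the 4 chains) in each group; white points give the share of Itgal in each library. Itgal fills nearly the whole bar in B and CD4 cells, Itgam takes 60.6% ± 20.04 (SD, n = 3) in FGRS KLS cells, and Itgad is visible in the rEC LKS-SLAM bar, which rests on 1 library.

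How adhesion genes change from stem cells to blood lineages was asked within the control groups, which share the LKS-SLAM libraries in each comparison. In myeloid cells Itgal, Itgax, Itgb2 and PSGL-1 were higher, Itgad did not pass (−0.05, adjusted p = 0.95), and the stem cell laminin receptor chain Itga6 and P-selectin were lower. Of 29 members, 14 were called higher and 8 lower, with 8 alpha chains higher and 3 lower, 3 beta chains higher and 2 lower and 3 partners higher and 3 lower, against 17.4% and 49.1% of all genes (66.5% called in all). The 14 higher members, and the 8 higher alpha chains among them, include Itgam, whose protein was a sort marker of the myeloid cells. The median difference of all genes was −0.61 on the log2 scale in this comparison, and that of the members was 0.61. After quantile normalisation, which moved the median of all genes to −0.03, 16 members were higher and 4 lower. Of all 14083 genes, 4110 were then called higher and 4308 lower.

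Itgal stood at 10.5, 11.2 and 18.9 FPKM in the control LKS-SLAM libraries and 488 and 479.5 in the myeloid ones, a log2 difference of 5.10 ± 0.46 SE, adjusted p = 5.87e-09. Its beta chain Itgb2 went from 39.5, 36.9 and 33.96 to 706 and 749, 4.27 ± 0.32 SE, adjusted p = 2.9e-10. Both myeloid libraries lay far above all 3 stem cell libraries for both genes. Itgam, whose protein was one of the sort markers of the myeloid cells, stood at 12.7, 11.5 and 11.2 against 412 and 405 FPKM, and a gene used in the sort is no finding. Itgax stood at 0.375, 0.843 and 4.18 in stem cells and 61.6 and 57.3 in myeloid cells (4.68 ± 0.61 SE, adjusted p = 1.03e-06). Stem cell replicate 3 was the highest of its group for Itgax. Among partners, Selplg rose by 3.46 ± 0.50 (SE, adjusted p = 3.53e-06) from 47.99, 56.6 and 68.7 FPKM to 641 and 637, and Cd44 by 3.52 ± 0.24 (SE, adjusted p = 6.14e-11) from 27.6, 29.8 and 34.4 to 356 and 366. The groups did not overlap for either gene.

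Among falls, Itga6 went from 38.3, 31.00 and 35.5 FPKM to 0.836 and 0.644, a change of −4.36 ± 0.47 SE, adjusted p = 6.2e-08. Selp, which platelets and endothelium store, went from 41.1, 26.8 and 42.9 to 1.87 and 1.28 (−3.86 ± 0.73 SE, adjusted p = 8.66e-05). Stem cells were above myeloid cells in every library for both. Vcam1 stood at 16.2, 12.9 and 1.06 in stem cells and 0.09600 and 0.0624 in myeloid cells (−2.87 ± 0.99 SE, adjusted p = 0.0143), so that stem cell replicates 1 and 2 carried the level. The same libraries had the higher sums of stromal markers, 162 and 251 FPKM against 20.1 in replicate 3, with 5, 6 and 3 of the 6 markers at 1 FPKM, and the part of such cells in Vcam1 was not tested. In bulk RNA fewer cells of a type and less RNA per cell cannot be told apart. Itgb3 fell by 1.95 ± 0.69 (SE, adjusted p = 0.0166) and Fermt3 by 0.58 ± 0.13 (SE, adjusted p = 0.000418). The Itgb3 and Vcam1 calls each ended without any 1 of stem cell replicates 1 and 2 and myeloid replicates 1 and 2, and after quantile normalisation.

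In B cells more members were lower than higher against stem cells, and the chains that rose were Itgb7, Itgal and Itga4. Itgb7, Itgal and Itga4 were called higher than in stem cells and 15 members were lower (2 alpha chains higher and 6 lower, 1 beta chain higher and 4 lower and 0 partners higher and 5 lower), against 18.9% and 36.7% of all genes (55.6% called in all), with a median of all genes at −0.25 and of members at −0.75. After quantile normalisation 6 were higher and 10 lower, and of all 14083 genes 4552 were then called higher and 3584 lower. Itgb7 stood at 18.9, 17.3 and 31.8 FPKM in the stem cell libraries and 190.1, 158 and 142 in the B cell libraries (2.84 ± 0.33 SE, adjusted p = 2.75e-07). Its partner Itga4 went from 32.7, 31.4 and 36.7 to 53.3, 86.8 and 80.5 (1.08 ± 0.33 SE, adjusted p = 0.00767), and Itgal to 43.02, 54.7 and 52.2 (1.85 ± 0.41 SE, adjusted p = 0.000703). The groups did not overlap for these 3 chains.

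Both chains of the fibronectin receptor fell in B cells. Itga5 stood at 28.8, 25.4 and 17.4 FPKM in stem cells and 0.116, 0.105 and 0.272 in B cells (−4.39 ± 0.23 SE, adjusted p = 2.22e-12), and Itgb1 at 73.9, 61.8 and 61.3 against 6.49, 10.3 and 11.5 (−2.70 ± 0.45 SE, adjusted p = 2.91e-05). No B cell library came near the lowest stem cell library for either gene. Selp fell by 4.61 ± 0.65 (SE, adjusted p = 3.94e-06) to 0.653, 0.3701 and 0.551. Itgam stood at 0.728, 1.18 and 1.42 FPKM in B cells (−2.61 ± 0.44 SE, adjusted p = 3.9e-05) and Itga6 at 6.01, 7.65 and 7.13 (−2.18 ± 0.42 SE, adjusted p = 0.00015). Both were below every stem cell library. Vcam1 was listed at 0 in all 3 B cell libraries, and its call (adjusted p = 0.00693) held under all 13 alternatives, with a highest adjusted p of 0.0454.

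T cells, taken as the mean of the CD4 and CD8 groups, had 9 members higher and 8 lower than stem cells (5 alpha chains higher and 3 lower, 3 beta chains higher and 2 lower and 1 partner higher and 3 lower), against 20.4% and 36.3% of all genes (56.7% called in all). The median of all genes was −0.21, that of members 0.15, and after quantile normalisation 13 members were higher and 5 lower. Of all 14083 genes, 4678 were then called higher and 3831 lower. Itgae, the chain of intraepithelial and dendritic cells that binds E-cadherin with Itgb7, stood at 0.477, 0.171 and 0.0565 FPKM in stem cells, 24.5 and 19.1 in CD4 and 16.7, 23.6 and 21.3 in CD8 libraries (4.17 ± 0.46 SE, adjusted p = 1.35e-07). Its partner Itgb7 stood at 535 and 447 in CD4 and 306, 294 and 271 in CD8 libraries (4.04 ± 0.30 SE, adjusted p = 2.89e-10). All 5 T cell libraries were above all stem cell libraries for both chains. Itgal rose by 3.51 ± 0.37 (SE, adjusted p = 8.16e-08), Itgb2 by 2.56 ± 0.26 (SE, adjusted p = 3.05e-08) and Selplg by 2.49 ± 0.40 (SE, adjusted p = 1.97e-05). Itga4 stood at 139 and 151 FPKM in CD4 and 80.8, 87.9 and 95.3 in CD8 libraries (1.72 ± 0.29 SE, adjusted p = 3.75e-05), above stem cells in each.

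Of the falls in T cells, Selp fell by 4.99 ± 0.59 (SE, adjusted p = 3.16e-07) to between 0.0739 and 0.342 FPKM. Itga5 stood at 1.58 and 1.496 in CD4 and 1.66, 2.75 and 1.74 in CD8 libraries (−3.14 ± 0.21 SE, adjusted p = 6.96e-11). Fermt3 fell by 0.85 ± 0.10 (SE, adjusted p = 5.34e-07). Stem cells were above T cells in every library for these 3. Vcam1 was called lower too (−2.97 ± 0.80 SE, adjusted p = 0.00322), at 0 and 0.0296 FPKM in CD4 and 0, 0 and 0.0123 in CD8 libraries. The call of Itgam (−0.98 ± 0.40 SE, adjusted p = 0.0413) was lost under 11 of 15 alternatives, and control CD8 replicate 2, at 20.9 FPKM, lay above the stem cell libraries.

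**Figure D3:**
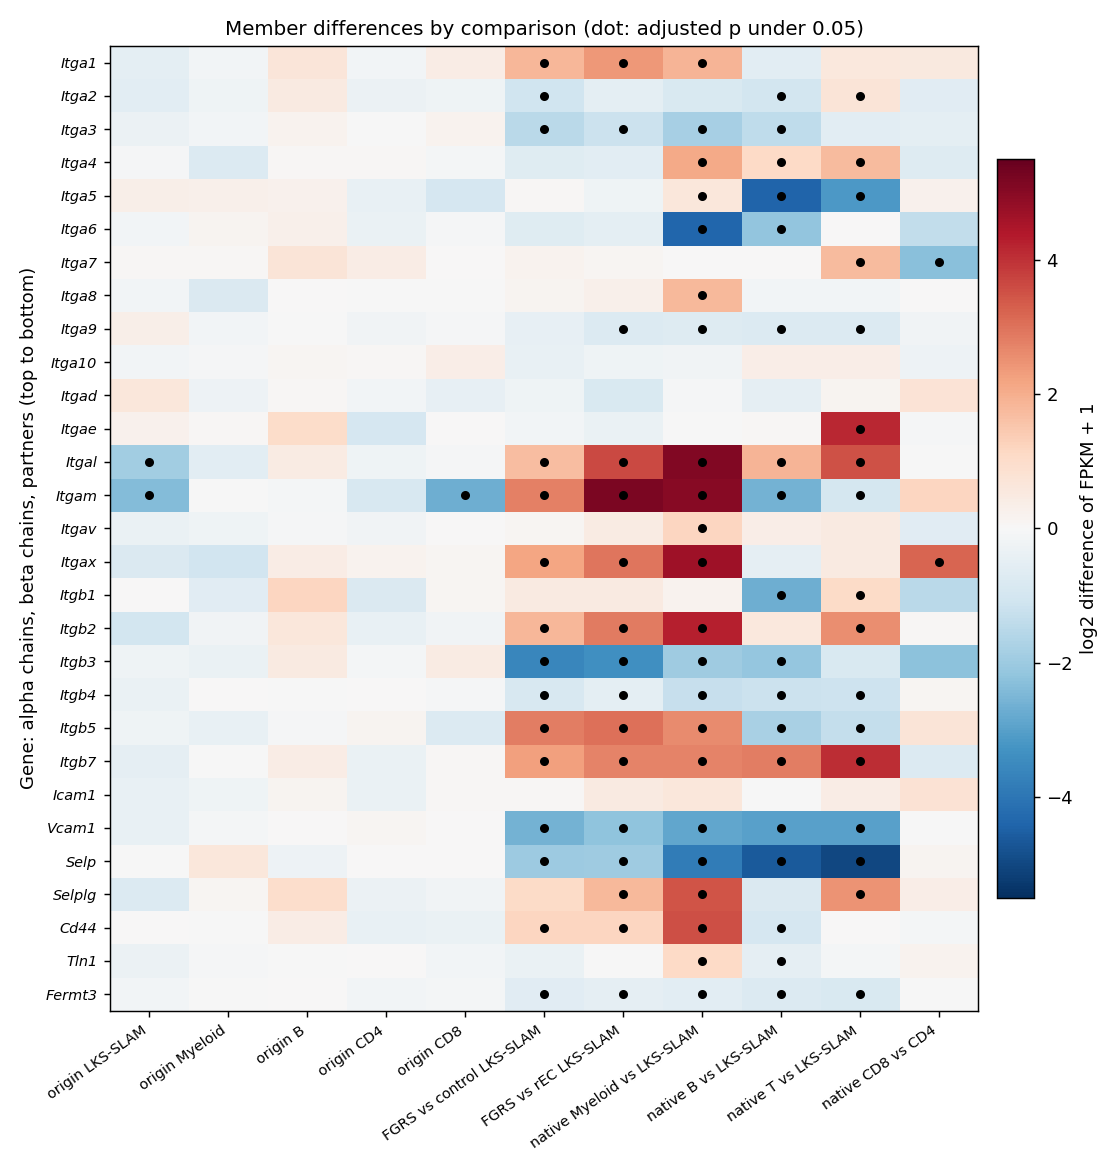
Log2 difference of FPKM + 1 (colour, red higher, blue lower in the first-named group, rEC minus control for the origin columns) of the 29 tested members in the 11 comparisons; a dot marks an adjusted p under 0.05. The origin columns hold 3 dots, on Itgal and Itgam in LKS-SLAM cells and Itgam in CD8 cells, while the native and FGRS columns hold 2 to 22.

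CD8 cells differed from CD4 cells of the control blood in the chains they expressed. Itgax, the CD11c chain of dendritic cells, stood at 0 and 0.2100 FPKM in the CD4 libraries and 12.7, 12.3 and 4.88 in the CD8 libraries (3.22 ± 0.61 SE, adjusted p = 0.00287). Itga7, a laminin receptor chain known from muscle, stood at 5.85 and 7.199 in CD4 and 0.2901, 0.4696 and 0.823 in CD8 libraries (−2.31 ± 0.29 SE, adjusted p = 3.32e-05). Neither gene's groups overlapped. These were the members called, 1 higher and 1 lower, against 1.92% and 1.56% of all genes (3.48% called in all). The Itgax call ended without CD4 replicate 1. Both calls ended in a limma fit on these 2 groups with a term for replicate number (adjusted p = 0.0898 each). Control CD8 libraries carried 410.4 to 488 FPKM of the 5 NK cell markers and 75.8 to 649.8 of the 6 myeloid markers, against 50.2 to 57.2 and 4.15 to 7.099 in CD4 libraries, and the part of such cells in the Itgax value was not tested.

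Itgb3, Itgb1, Itga6, Itgb7 and Itgav were lower in CD8 than CD4 cells in every library without passing the test over all groups. Itgb3 stood at 45.5 and 44.5 against 9.89, 7.07 and 8.71 FPKM (−2.28, adjusted p = 0.0766), Itgb1 at 242 and 212 against 105, 83.4 and 61.7 (−1.46, adjusted p = 0.136) and Itga6 at 58.00 and 57.4 and between 19.7 and 24.9 (−1.37, adjusted p = 0.136). Itgb7 and Itgav had differences of −0.75 and −0.61. When rEC LKS-SLAM replicate 2 and rEC B replicate 1, which are in neither group but add to the pooled spread, were left out, all 5 were called, with Itgad and Icam1 called higher, and the count was 9. Over all genes 1599 of 14051 were then called, 802 higher and 797 lower, against 490 of 14083 with all 29 libraries. Itgb3, Itgb1, Itga6, Itgb7 and Itgav were singled out after their values were seen. In this comparison 18 of the 29 members had no overlap. The share over all genes is not given here, so that count is not read as a result about the members.

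The comparison of derived with native cells asks how like native blood the descendants of converted endothelium are. In LKS-SLAM cells, Itgal and Itgam were lower in the derived cells, and no beta chain or partner passed. Itgal stood at 10.5, 11.2 and 18.9 FPKM in the control and 8.62, 2.33 and 0.613 in the rEC libraries (−1.92 ± 0.41 SE, adjusted p = 0.0176). Itgam stood at 12.7, 11.5 and 11.2 against 4.22, 0.381 and 1.01 (−2.39 ± 0.44 SE, adjusted p = 0.00504). Every rEC library was below every control library for both chains, with rEC replicate 1 closest to the controls. Among the libraries labelled long-term stem cells alone, 1 a group, Itgal was at 18.9 in control and 8.62 in rEC cells and Itgam at 11.2 and 4.22, the same order as among the others. The 2 lower calls stand beside 1.25% of all genes called lower, 0.071% higher and 1.32% in all.

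The shared beta chain Itgb2 stood at 39.5, 36.9 and 33.96 FPKM in control and 17.8, 14.3 and 21.4 in rEC LKS-SLAM cells, also without overlap, but did not pass (−1.02 ± 0.28 SE, adjusted p = 0.085). It passed after quantile normalisation (−1.08, adjusted p = 0.0471). The 6 myeloid markers, none of them a member, summed to 1288 to 1589 FPKM in control and 91.02 to 486 in rEC libraries, with 6 and 4 of the 6 at a mean of 1 FPKM and none at 0 throughout. The 6 eosinophil and basophil markers summed to 42.5 to 4638 and 1.95 to 367. The myeloid sums did not overlap between the groups and moved with Itgal and Itgam, while the eosinophil and basophil sums overlapped. The T cell and B cell sums were highest in control replicate 3 (49.9 and 129.7 FPKM) and, within rEC, in replicate 1 (19.3 and 39.9), the libraries with the highest Itgal of their groups. Across all 3 libraries a group the T cell sums were 8.08 to 49.9 in control and 4.47 to 19.3 in rEC cells, and the B cell sums 35.4 to 129.7 and 14.4 to 39.9. The part of these cells in the result was not tested. The Itgal call was lost without control replicate 3 or rEC replicate 3, and both calls were lost in a fit on these 2 groups alone, where no gene was called.

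Chains that hold stem cells in the marrow did not pass. Itga4 stood at 32.7, 31.4 and 36.7 FPKM in control and 31.3, 35.7 and 28.5 in rEC LKS-SLAM cells (−0.08, adjusted p = 0.966), and Itgb1 at 73.9, 61.8 and 61.3 against 70.3, 65.2 and 63.9 (0.02). The groups overlapped for both. For Vcam1, Selp, Itga6 and Itgb3, rEC replicate 2, the library with the lowest sum of stem cell markers, was at the end of its group. Vcam1 was at 0.862, 69.5 and 0.616 in rEC replicates 1 to 3, highest in replicate 2, and Selp at 52.7, 5.14 and 142, lowest there. Itga6 at 45.2, 10.2 and 66.6 and Itgb3 at 27.8, 8.62 and 118 were lowest there too. Without that library and rEC B replicate 1, 6 members were called: Itgal, Itgam, Itgb2 (−0.88), Vcam1 (−2.19) and Itgad (−0.59) lower and Selp (1.24) higher. Over all genes 1554 of 14051 were then called, 597 higher and 957 lower, against 186 of 14083 with all 29 libraries.

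In CD8 cells Itgam was lower in the derived cells, at 9.49, 20.9 and 3.05 FPKM in control and 0.634, 0.338 and 0.559 in rEC libraries (−2.70 ± 0.44 SE, adjusted p = 0.00265). Control replicate 2 was the highest of its group, and no rEC library reached the lowest control. This 1 lower call stands beside 0.987% of all genes called lower, 0.142% higher and 1.13% in all. The 6 myeloid markers summed to 75.8 to 649.8 FPKM in control and 0.846 to 16.2 in rEC CD8 libraries, with 4 and 1 of them at a mean of 1 FPKM and Retnlg at 0 in every rEC library. The 6 B cell markers summed to 199 to 475 and 6.799 to 62.4, and the 6 macrophage markers to 8.797 to 35.8 and 0.0535 to 2.37. All 3 sums moved with Itgam, and their part in it was not tested. In a fit on the CD8 groups alone the adjusted p was 0.090.

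Itga5 showed a like order in CD8 cells, at 1.66, 2.75 and 1.74 FPKM in control and 0.454, 0.639 and 0.668 in rEC libraries, without overlap. It did not pass (−0.93 ± 0.23 SE, adjusted p = 0.0551), but it did with a pseudocount of 0.1, with a filter of 5 FPKM, and without the 2 libraries that stood apart. Itgal, Itgb2, Itgae and Itgax had differences of −0.06, −0.20, 0.03 and 0.10. Itgax was highest in rEC replicate 2 at 23.02 FPKM.

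**Figure D4:**
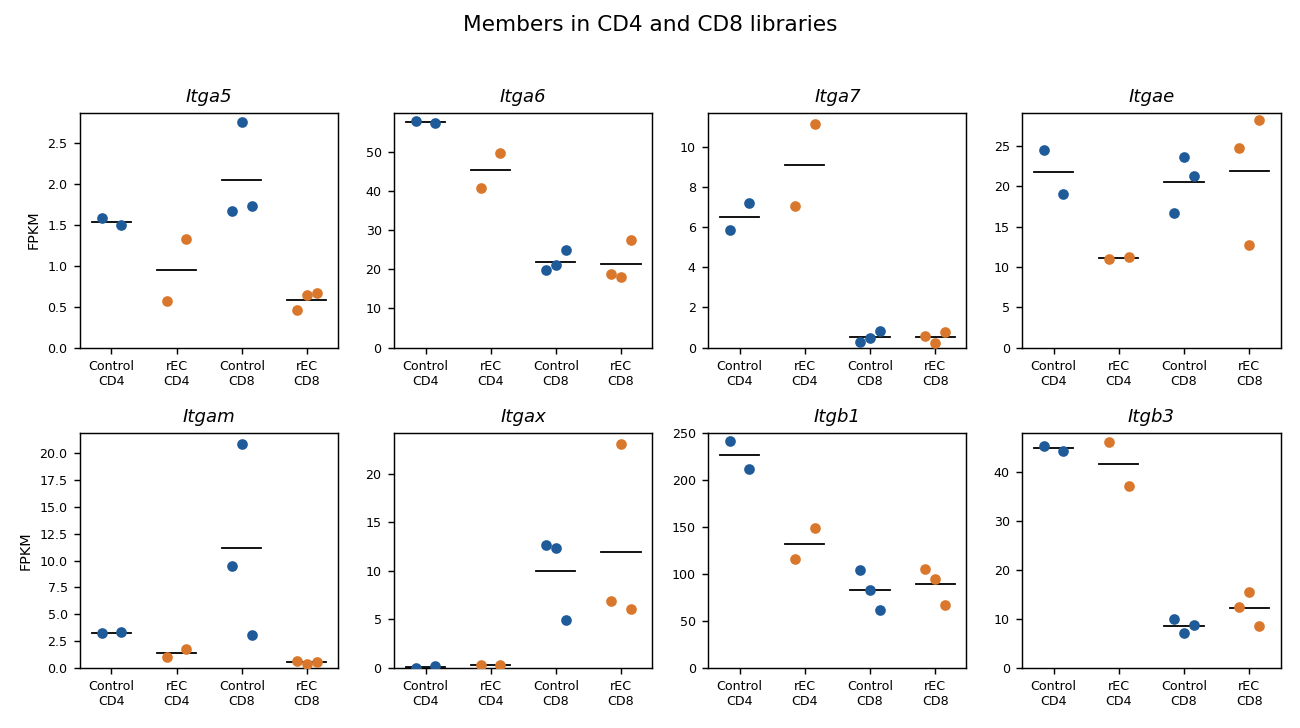
FPKM (linear axes from 0) of 8 members in the control (blue) and rEC (orange) CD4 and CD8 libraries, points for libraries and lines for group means. Itgam and Itga5 lie lower in the 3 rEC CD8 libraries than in the 3 control ones, Itgax and Itga7 separate CD8 from CD4 cells in both origins, and Itgae lies near 11.1 FPKM in both rEC CD4 libraries.

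In myeloid, B and CD4 cells no member was called by limma, beside 0.227%, 0.0% and 0.0213% of all genes. At an unadjusted p under 0.05 the members numbered 1, 4 and 0, and over all genes 526, 398 and 417. In myeloid cells Itgal stood at 488 and 479.5 FPKM in control and 344 and 303 in rEC libraries and Itgax at 61.6 and 57.3 against 35.8 and 21.5, both without overlap but not passing (−0.58 and −1.07). Itga8, known from smooth muscle and kidney, was at 2.94 and 2.71 against 3.13 and 0.181, low only in rEC replicate 2. Without rEC replicate 1 it was called (−1.69), on that single low library, with the spread taken from the other groups. In CD4 cells Itgae stood at 24.5 and 19.1 against 10.9 and 11.2 FPKM (−0.91, adjusted p = 1) and Itgb1 at 242 and 212 against 116 and 149 (−0.78). Both were lower in each rEC library. With 2 libraries a group, 15 of the 29 members had no overlap in myeloid and 11 in CD4 cells. The share over all genes is not given here, so these counts are not read as a result about the members. A lack of overlap sets none of them apart from the other members.

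The B cell values were led by rEC replicate 1, in which T cell markers were high. Itgb1 stood at 6.49, 10.3 and 11.5 FPKM in control and 84.9, 12.6 and 9.92 in rEC B libraries, Itgae at 0.485, 0.264 and 0.1197 against 10.1, 0.131 and 0.344, and Selplg at 32.8, 31.6 and 32.8 against 223, 34.98 and 32.4. In each case rEC replicate 1 was high and replicates 2 and 3 were near the controls. Among further members that were highest in this library, Itgal at 109 and Itgb2 at 165 were at 43.02, 54.7 and 52.2 (Itgal) and 51.9, 55.6 and 58.1 (Itgb2) FPKM in control B cells, and Itga1, at 3.14, was listed at 0 in every other control and rEC B library. Without this library no member was called either. The part of T cells in these values was not tested.

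Whether the origin difference itself varied between the 5 cell types was tested over its 4 independent contrasts. No member passed, beside 0.277% of all genes, and 4 members had an unadjusted p under 0.05. The values of Itgam were −2.39 in LKS-SLAM, −0.04 in myeloid, −0.10 in B, −0.86 in CD4 and −2.70 in CD8 cells (adjusted p = 0.115). Without the 2 libraries that stood apart Itgam passed (adjusted p = 0.0387). It also passed without rEC LKS-SLAM replicate 1, where Itgal passed as well, without rEC LKS-SLAM replicate 2, and without control CD8 replicate 3, with adjusted p between 0.00912 and 0.0388. Itga8 passed without rEC myeloid replicate 1, again on 1 library.

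Cultured FGRS KLS cells carried more Itgal, Itgam, Itgax and Itgb2 and less Selp, Vcam1 and Itgb3 than native stem cells, while Itgad did not pass (−0.23, adjusted p = 0.754). Of 29 members, 8 were called higher and 7 lower than control LKS-SLAM cells (4 alpha chains higher and 2 lower, 3 beta chains higher and 2 lower and 1 partner higher and 3 lower), against 17.1% and 31.7% of all genes (48.8% called in all). The median was −0.19 over all genes and 0.07 over the members. After quantile normalisation 9 were higher and 4 lower, and of all 14083 genes 2944 were then called higher and 2864 lower. The gates differ and the cells were cultured, so culture, conversion and gate cannot be told apart. Both gates take cells without lineage markers, among which Itgam protein is often used, and the lineage antibodies are not given in the sources used here.

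Itgam stood at 12.7, 11.5 and 11.2 FPKM in the control LKS-SLAM libraries and 51.5, 115 and 111 in the FGRS libraries (2.79 ± 0.44 SE, adjusted p = 4.17e-05). Itgb2 went from 39.5, 36.9 and 33.96 to 84.8, 174 and 166 (1.85 ± 0.28 SE, adjusted p = 2.73e-05). FGRS replicate 1 was lowest of its group for both, and all FGRS libraries were above all controls. Itgal, at 71.8, 33.9 and 36.7 in FGRS libraries, rose by 1.70 ± 0.41 (SE, adjusted p = 0.00211) and was highest in replicate 1. Itgax rose by 2.18 ± 0.55 (SE, adjusted p = 0.00265) to 13.6, 9.28 and 7.202 from 0.375, 0.843 and 4.18. Replicate 1 had more Itgal and Itgax and less Itgam than replicates 2 and 3. It also had the lowest sums of macrophage and myeloid markers of the 3, 101 and 401 FPKM, against 969 and 5248 in replicate 2 and 396 and 2691 in replicate 3.

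The beta chains Itgb5 and Itgb7 rose as well. Itgb5, which pairs with Itgav, stood at 1.897, 1.76 and 6.33 FPKM in control and 21.3, 30.01 and 28.4 in FGRS libraries (2.81 ± 0.43 SE, adjusted p = 2.34e-05). Itgb7 stood at 18.9, 17.3 and 31.8 against 93.1, 104 and 130.3 (2.25 ± 0.33 SE, adjusted p = 1.6e-05). Neither gene's groups overlapped. The alpha chains that pair with them did not pass: Itgav stood at 5.69, 5.41 and 5.02 FPKM in FGRS cells (0.12, adjusted p = 0.767), though Itgav was called higher after quantile normalisation (0.85), and Itga4 at 42.9, 13.5 and 15.3 (−0.66, adjusted p = 0.0965). Without FGRS replicate 1, its highest library, Itga4 was called lower by limma (−1.17, adjusted p = 0.00194). Itgae remained under 1 FPKM in every FGRS library. Itga1, a collagen receptor chain, and Cd44 were the other 2 members called higher (1.84 and 1.17).

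Itgb3 stood at 67.03, 57.3 and 12.1 FPKM in control and 4.19, 1.38 and 1.34 in FGRS libraries (−3.60 ± 0.62 SE, adjusted p = 8.46e-05), with every FGRS library below the lowest control. Selp went from 41.1, 26.8 and 42.9 to 12.3, 9.03 and 5.07 (−2.00 ± 0.65 SE, adjusted p = 0.0152), without overlap, and its call ended without FGRS replicate 3. Vcam1 stood at 0.0602, 0.767 and 0.177 in FGRS cells, and its call (−2.60 ± 0.89 SE, adjusted p = 0.0194) was lost without any 1 of control replicates 1 and 2 and FGRS replicates 1 and 3, and after quantile normalisation. Fermt3, the activator of integrins in blood cells, fell by 0.62 ± 0.11 (SE, adjusted p = 0.000188) from 215, 205 and 182 to 118, 143 and 130.3. Itga2, Itga3 and Itgb4 were the other members called lower, each under 4 FPKM in all 6 libraries, and none of the 3 passed after quantile normalisation. Itga2b, the chain that joins Itgb3 on platelets and is not a member, fell by 3.17 (9.01 against 103 FPKM, group means).

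Markers of other cell types differed between these groups too. The 6 macrophage markers summed to 13.4 to 18.5 FPKM in control LKS-SLAM and 101 to 969 in FGRS libraries, with 5 and 6 of them at a mean of 1 FPKM. The 6 myeloid markers summed to 1288 to 1589 and 401 to 5248, overlapping, and the 7 stem cell markers to 414 to 481 and 31.4 to 56.04. The 6 platelet markers summed to 49.3 to 332 and 68.9 to 852, with 5 and 3 of them at a mean of 1 FPKM and Gp6 at 0 in both groups. In control replicates 1 to 3 their sums were 332, 262 and 49.3, falling in the order of Itgb3. In FGRS replicates 1 to 3 the sums were 68.9, 852 and 696, lowest where Itgb3 was highest. The 6 endothelial markers summed to 89.7 to 202 and 3.45 to 6.43, without overlap. The 6 erythroid markers summed to 314 to 1079.8 and 1.19 to 1.95, with Hba-a1 and Hbb-bs at 0 in FGRS cells. The 6 stromal markers, which moved with Vcam1, summed to 20.1 to 251 and 3.56 to 6.22. Neither of these lists overlapped. Their part in the integrin values was not tested.

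Against rEC LKS-SLAM cells, which share the FGRS libraries with the comparison above, 9 members were called higher and 7 lower (4 alpha chains higher and 2 lower, 3 beta chains higher and 2 lower and 2 partners higher and 3 lower), against 17.2% and 27.8% of all genes (45.0% called in all). After quantile normalisation 10 were higher and 4 lower, and of all 14083 genes 2596 were then called higher and 3071 lower. Itgam, at 4.22, 0.381 and 1.01 FPKM in the rEC libraries, was higher in FGRS cells by 5.17 ± 0.44 (SE, adjusted p = 1.3e-08). Itgal, at 8.62, 2.33 and 0.613, was higher by 3.62 ± 0.41 (SE, adjusted p = 7.17e-07). Itgb5, Itgax, Itgb2 and Itgb7 differed by 3.05, 2.96, 2.87 and 2.74. For these 6 chains all FGRS libraries were above all rEC libraries. Itgb3 was lower (−3.38 ± 0.62 SE, adjusted p = 0.00017) without overlap. Vcam1 and Selp were called lower (−2.20 and −1.95) although their groups overlapped, and the Vcam1 call ended without rEC replicate 2 and without each FGRS replicate. The Selp call ended without rEC replicate 1, rEC replicate 3 or FGRS replicate 3. Without rEC replicate 2, Itga6 was called lower (−1.32, adjusted p = 0.000397, against 0.299 with it). In a fit on the 2 groups alone 9 members were called, all of them higher.

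**Figure D5:**
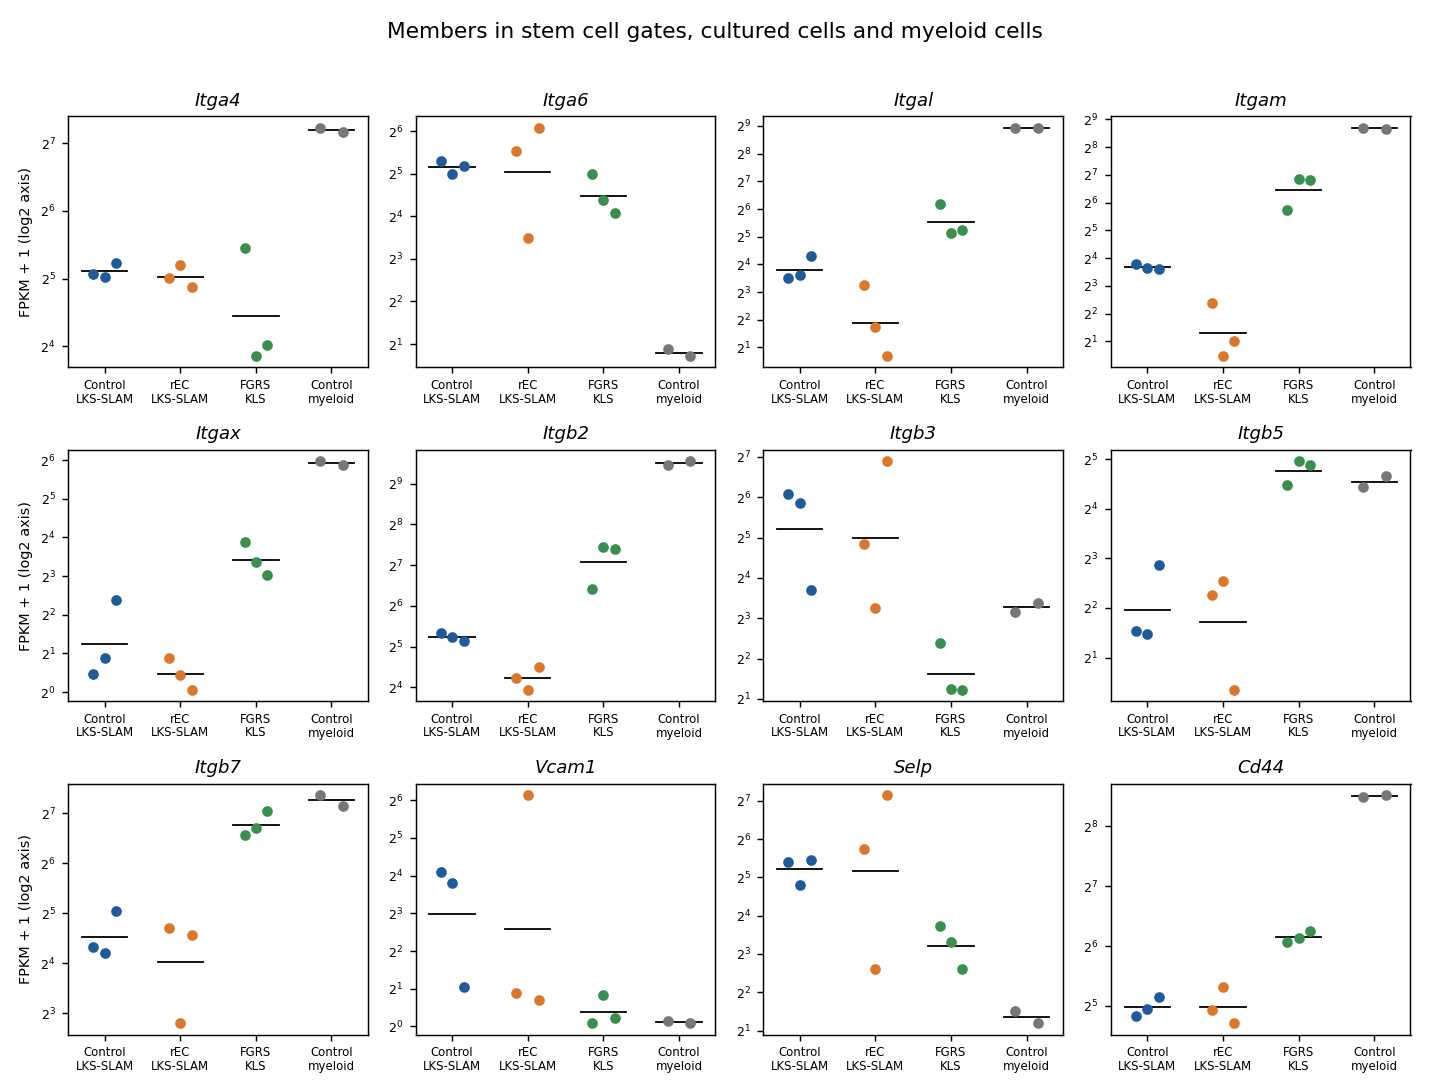
FPKM + 1 (log2 axes) of 12 members by library in control LKS-SLAM (blue), rEC LKS-SLAM (orange), FGRS KLS (green) and control myeloid cells (grey), with lines at the mean of the log2 values. Itgal, Itgam, Itgax and Itgb2 lie in FGRS KLS cells between control LKS-SLAM and control myeloid cells, Itgb5 lies near the myeloid level, and rEC LKS-SLAM replicate 2 (the middle orange point) stands apart for Itga6, Itgb7, Vcam1 and Selp.

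Genes around the integrins were followed in fixed lists that hold no member. Of the 14 tested adaptors of integrin activation (talin and kindlin relatives, the Rap1 switch and its partners), 10 were called higher and 0 lower in control myeloid than in LKS-SLAM cells, with a list median of 1.32. In T cells 12 were higher and 2 lower (median 1.07) and in B cells 8 and 3 (median 0.51). The background is the percentages of all genes called given above for each comparison. Fyb, an adaptor of T cell and platelet integrin signalling also called ADAP, differed by 2.97 in myeloid, 2.44 in T and −4.17 in B cells. Its partner Skap1 rose by 5.77 in T cells, where its relative Skap2 fell by 3.25. In B cells Rasgrp2, the exchange factor of Rap1, and Cyth1, which binds Itgb2, rose by 2.29 and 2.26. In FGRS cells 5 adaptors were higher and 1 lower than in control LKS-SLAM cells, with Flna at 0.92, Rap1a at 0.88 and Dok1, which binds beta chain tails in place of talin, at −1.46.

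Of 16 ligands and other adhesion receptors tested, 3 were higher and 9 lower in myeloid, 4 and 10 in B, 5 and 7 in T and 2 and 5 in FGRS cells, against control LKS-SLAM cells, beside 49.1%, 36.7%, 36.3% and 31.7% of all genes called lower. Called higher were 17.4%, 18.9%, 20.4% and 17.1% of all genes. Cd34 and Esam, both known from stem cells and endothelium, differed by −6.05 and −5.69 in myeloid cells, and Esam by −4.22 in FGRS cells. Fibronectin (Fn1), the ligand of Itga5 with Itgb1, stood at 306 against 9.02 FPKM in myeloid against LKS-SLAM cells. In derived LKS-SLAM cells 2 of the 16 were lower and 0 higher, beside 1.25% and 0.071% of all genes. Fn1 was among the 2 (−2.59, 0.385 against 9.02 FPKM). In derived CD8 cells, where 0.987% of all genes were called lower, Fn1 (−2.65, 0.249 against 11.5 FPKM), Cd81 (−1.88) and the kinase Syk (−2.79, 2.602 against 21.2 FPKM) were lower. The myeloid, macrophage and B cell marker sums that moved with Itgam in the same groups are given above.

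Over all genes 66.5%, 55.6%, 56.7% and 48.8% were called in myeloid, B, T and FGRS cells against control LKS-SLAM cells. Of 12 tetraspanins and lateral partners, 3 were higher and 5 lower in myeloid, 3 and 5 in B, 4 and 6 in T and 3 and 1 in FGRS cells. Cd53 was among the higher ones in all 4 (3.17, 2.86, 3.27 and 2.32), and Cd63 fell by 7.82 in B cells and differed by −7.98 in T cells. Of 15 focal adhesion and signalling genes, 7 were higher and 3 lower in myeloid, 2 and 7 in B, 1 and 7 in T and 1 and 4 in FGRS cells. Nedd9, a docking protein of beta1 signalling, rose in myeloid (3.22), B (3.16) and T cells (2.02), while Syk rose in myeloid (2.69) and B cells (3.43) and fell in T cells (−2.24). Itga2b, the platelet chain, was lower in myeloid, B and T cells (−4.75, −5.39 and −4.89).

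Of the remaining members most were low. Itga10, a collagen receptor chain of cartilage, had a median of 1.42 FPKM over the 29 libraries and a highest value of 2.74. Itga8 had a median of 0.00714, Itga2 of 0.741, Itga3 of 1.11, Itga9 of 0.125, Itgb4 of 0.0889 and Itgad of 0.328, so fold changes of these chains on the log2(FPKM + 1) scale understate their ratios. Icam1, the ligand of LFA-1, reached 1 FPKM in every grouped library, at a median of 29.5. It was called in no comparison in the fit over all groups, but it was in several under alternatives. In myeloid against LKS-SLAM cells its adjusted p was 0.0867 over all groups. In a limma fit on these groups alone it was 0.00130 (0.64). Icam1 stood at 25.8, 26.2 and 25.9 FPKM in control LKS-SLAM and 25.6, 29.9 and 26.7 in FGRS libraries (0.07, adjusted p = 0.86). Tln1 had a median of 104 and differed by 1.08 in myeloid cells (adjusted p = 6.79e-05), −0.48 in B cells (0.0254) and −0.35 in FGRS cells (0.108).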

How the data were processed

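Poly-A RNA from sorted or cultured mouse cells was sequenced as paired reads without strand information, per the labels' protocols. The authors deposited 1 table of FPKM values per gene and library. Cufflinks 2.2.1, TopHat2 2.1.0, the mm10 build and Trimmomatic 0.36 are listed, per the submitters' processing notes; the gene annotation is not given in the sources used here. No read counts were used, and no count test was run. Relative depth was estimated from the most frequent ratio between libraries among values under 0.5 FPKM.

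From these values, log2(FPKM + 1) was fitted with limma 3.58.1 (R 4.3.3), with 1 mean per group over 29 libraries in 11 groups, 18 residual degrees of freedom, and a variance trend. Genes with 1 FPKM or more in 2 or more libraries were tested (14083 of 23060), and p-values, all two-sided, were adjusted by the Benjamini-Hochberg method over all of them. A fold change on this scale understates the change of low genes. The code was tested on simulated data. Figures and summaries used Python 3.11.15, pandas 2.3.3 and matplotlib 3.10.9.

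The members and gene lists were chosen with earlier results of these data known. Per-library values are given for members called in a comparison with a mean of 5 FPKM or more in the higher group, for at most the 6 largest rises and falls, and for defining members; of the lists, at most the 2 largest rises and 2 largest falls are named. Alternatives were a pseudocount of 0.1, no filter, a filter of 5 FPKM, quantile normalisation, leaving out each library in turn or the 2 that stood apart together, a fit on the compared groups alone, and a replicate block. The 1 library without a group entered no comparison. The values of 1 gene of the lists are not reported here.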

Additional observations from a re-analysis of the deposited data

Results flagged for a closer look

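The B220+ library of clone 47G1 that could not be given a group was read apart from the comparisons. Of the 15 members at 1 FPKM or more there, 9 lay within the range of the 3 control B cell libraries and 4 lay above all of them. Itgb3 stood at 9.01 FPKM against a control highest of 8.597, Itgb7 at 206.3 against 190.1, Cd44 at 19.0 against 17.7, and Fermt3 at 123 against 120.6. Itga6 at 4.87 and Selplg at 31.0 lay below all 3 control libraries. These are single values with no test, and 1 library above or below 3 others is no evidence of a difference.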

How the results depend on the processing

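Of 93 member calls, 32 no longer passed, in the same direction, under at least 1 alternative. The other 61 held under every alternative, except that Itga9 in native B cells turned around after quantile normalisation. Quantile normalisation turned 3 called values around: Itga9 in native myeloid cells (0.11) and, in native B cells, Itga2 (0.044) and Itga9 (0.11). The cause was not tested. Of 44 shares of the beta2 alpha chains, 30 moved by under 1 SD.

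For derived against control CD8 cells the count of called members was 1, and it was 2 with a pseudocount of 0.1, with a filter of 5 FPKM, and without rEC LKS-SLAM replicate 2 and rEC B replicate 1 together. Without these 2 libraries it was 6 instead of 2 for derived LKS-SLAM cells, 9 instead of 2 for CD8 against CD4 cells, and 1 instead of 0 for the difference of origin effects between cell types. The calls over all genes rose there too, to 1554 from 186, to 1599 from 490 and to 553 from 39, and for derived CD8 cells to 453 from 159. In fits on the compared groups alone, which have fewer libraries, the count of called members was 0 for derived LKS-SLAM and 0 for derived CD8 cells, 9 instead of 16 for FGRS KLS against rEC LKS-SLAM cells, and 9 for CD8 against CD4 cells.

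Leaving out 1 library at a time gave 1 to 4 called members for derived LKS-SLAM cells, 0 to 1 for derived myeloid cells, 1 to 3 for CD8 against CD4 cells and 0 to 2 for the difference of origin effects. It gave 13 to 16 for FGRS KLS against control and 12 to 16 against rEC LKS-SLAM cells, and 19 to 22, 17 to 18 and 14 to 16 for native myeloid, B and T cells.

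Replicate numbers did not pair the libraries: correlations of same-numbered deviations ran from −0.0889 to 0.126, and those over 0.1 came from 2 pairs. With a replicate block the counts were 0 for derived myeloid cells, 17 for FGRS KLS against control, 22, 20 and 20 for native myeloid, B and T cells, and 0 for CD8 against CD4 cells, where Itgax and Itga7 each had an adjusted p of 0.0898. The block for the native comparisons was chosen after seeing the data. Depth limits the members under 1 FPKM, for which no read counts were used.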
